A study of Mus musculus with 108 samples.

Results

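Described here are 9 genes of nicotinamide adenine dinucleotide (NAD) synthesis and use, Nampt, Nmnat1, Nmnat3, Nadsyn1, Naprt, Nmrk1, Nnmt, Qprt and Sirt1, which were chosen by symbol and make up 9 of the 55416 genes in the deposited count table. They were read in the RNA of 3 tissues, the liver, the kidney and the white adipose tissue (WAT), of Bmal1-iKO and Bmal1-flox mice, called iKO and flox below, and all 9 passed the filter on low counts in all 3 tissues. Sampling covered 1 day at ZT2, ZT6, ZT10, ZT14, ZT18 and ZT22, where ZT counts the hours since the lights came on, with 3 libraries for each tissue, genotype and time and so 36 a tissue. All animals of both genotypes were labelled as male C57BL/J mice 8 to 12 weeks old, kept in 12 h of light and 12 h of darkness with free access to food and water. Both genotypes are named for Bmal1 (gene symbol Arntl), a transcription factor of the circadian clock, and the flox group is taken as the control. The series title speaks of a clock in the intestine, but the labels name neither the cells that lost Bmal1 nor the Cre line. Nor do they say that each library stands for another animal, so the p-values refer to the variation among these libraries and could in part reflect technical variation.

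NAD carries electrons in the reactions of energy metabolism and is also consumed as a substrate by sirtuins, PARP enzymes and NAD glycohydrolases, which release nicotinamide. Cells make NAD anew from tryptophan by way of quinolinate, from nicotinic acid, or from nicotinamide and its riboside by salvage, and the liver is known for using all of these routes. In mouse liver CLOCK and BMAL1 are known to drive Nampt transcription with a daily rhythm, and SIRT1, which needs NAD, acts back on clock proteins.

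By role, Qprt (chr7:127107114-127122226, minus strand, GRCm38) encodes the enzyme that turns quinolinate into nicotinic acid mononucleotide, the last step that belongs to the tryptophan route alone. Naprt (chr15:75890956-75894481, minus strand) encodes the enzyme that brings nicotinic acid into the same intermediate. Nadsyn1 (chr7:143795584-143822849, minus strand) encodes NAD synthetase, which completes both of these routes. Nampt (chr12:32819545-32853349, plus strand) encodes the rate-limiting enzyme of nicotinamide salvage, and Nmrk1 (chr19:18631950-18652428, plus strand) a kinase for nicotinamide riboside. The enzymes that join a mononucleotide to ATP are encoded by Nmnat1 (chr4:149467572-149485202, minus strand), whose product is nuclear, and Nmnat3 (chr9:98287435-98420438, plus strand), whose product is mitochondrial. On the side of use, Nnmt (chr9:48591877-48605153, minus strand) encodes the enzyme that methylates nicotinamide and so takes it out of salvage, and Sirt1 (chr10:63319005-63381704, minus strand) an NAD-dependent deacetylase. These positions are those of GENCODE M21, found by gene ID. Reads could be uncertain between genes for Naprt, which shares 277 exonic bases (11.8%) with Eef1d on the same strand, and for Sirt1, which shares 65 bases (1.2%) with the antisense gene Gm16145.

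Promoter sequences of Nampt and Sirt1 are shown because the first gene had the only daily rhythm called among the 9 by the cosine fit described below and the second was the only member with an E-box, the motif CACGTG bound by CLOCK and BMAL1, in its promoter window. Each run covers the 250 bases before a RefSeq start site of GRCm38.p6, read 5′ to 3′ on the gene's strand, and lies at chr12:32820085-32820334 for Nampt and at chr10:63339036-63339285 for Sirt1. Capitals mark AGGTCA, the core letters bound by many nuclear receptors, in Nampt and CACGTG in Sirt1.
Nampt: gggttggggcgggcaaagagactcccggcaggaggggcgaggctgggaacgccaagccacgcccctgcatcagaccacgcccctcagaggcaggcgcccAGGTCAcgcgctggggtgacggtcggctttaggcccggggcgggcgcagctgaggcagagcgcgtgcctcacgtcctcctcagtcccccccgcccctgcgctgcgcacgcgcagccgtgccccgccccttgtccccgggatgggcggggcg
Sirt1: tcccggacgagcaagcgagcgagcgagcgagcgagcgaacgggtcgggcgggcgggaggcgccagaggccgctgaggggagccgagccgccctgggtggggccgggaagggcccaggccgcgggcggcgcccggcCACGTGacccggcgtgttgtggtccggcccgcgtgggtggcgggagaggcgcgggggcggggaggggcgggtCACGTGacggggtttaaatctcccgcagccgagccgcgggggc
On both strands, 8 promoters of 7 members were searched for the E-box CACGTG, the related form CACGTT, the receptor core AGGTCA and the forms TTATGTAA and TTACGTAA of the D-box, which DBP and its relatives bind. AGGTCA began 151 bases before the Nampt start site, and CACGTG began 115 and 43 bases before that of Sirt1. No other match was found in these windows, which says only that these letters are not there. Among 32851 promoter windows of the same length, 6.02% held CACGTG, 3.85% CACGTT, 14% AGGTCA, 0.819% TTATGTAA and 0.113% TTACGTAA.

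Several libraries stood apart or went against their labels. Liver libraries held 14428000 to 23428000 counts in total, kidney libraries 13876000 to 22123000 and WAT libraries 14104000 to 24415000. In 11 of the 36 liver libraries the mean of the cell cycle genes lay above 2 on the log2 scale of CPM (each count as a share of its library's total, scaled to a fixed library size). They were iKO ZT6 libraries 1 and 2, iKO ZT14 libraries 1 and 2, iKO ZT18 libraries 1 and 2, all 3 iKO ZT22 libraries, flox ZT6 library 1 and flox ZT22 library 1, that is 9 iKO and 2 flox libraries. Macrophage markers averaged 7.91 to 9.04 in these 11 and 2.78 to 7.02 in the other 25, interferon-stimulated genes 5.58 to 7.37 and 2.19 to 4.79, and hepatocyte markers 10.73 to 12.92 and 12.23 to 13.12, all on the log2 CPM scale. In kidney the libraries of the same numbers held 8.74 to 10.53 for proximal tubule markers, against 8.83 to 11.46 in the others. Xist, which is transcribed in females, was above a log2 CPM of 3 in all 3 tissues of 2 numbers, iKO ZT18 library 1 and iKO ZT22 library 3, although the labels say male. For 3 numbers among the 11 (iKO ZT6 library 2, iKO ZT22 library 3 and flox ZT6 library 1), 12 clock genes placed the library 5 h or more from its labelled time in at least 2 tissues, a limit chosen after the data were seen. Markers of epididymis, which lies beside gonadal fat, averaged above 5 on the log2 CPM scale in 28 of the 36 WAT libraries (13 iKO and 15 flox), while adipocyte markers averaged 3.75 to 10.31 in those 28 and 7.98 to 11.66 in the other 8. Of the defining markers, Alb ran from 14.43 to 16.62 in liver and Slc34a1 from 9.80 to 12.55 in kidney on the log2 CPM scale. Adipoq ran from 2.98 to 11.85 in WAT, so the WAT libraries differed widely in this adipocyte marker, down to low levels. Arntl itself was present in every library, from 1.09 to 5.20 in iKO and from 0.43 to 5.27 in flox libraries of all tissues on that scale, and its average log2 difference, iKO minus flox, was not called in any tissue (liver -0.10, kidney 0.28, WAT -0.09).

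Each tissue had its own order of the 9 genes (levels are CPM divided by gene length in kilobases, CPM per kb, ± SD over 18 libraries, with all 3 tissues scaled together). In liver Nnmt was the highest, at 369.6 ± 133 in iKO and 385 ± 149 in flox, well above the next gene. Naprt followed at 83.8 ± 48.0 in iKO and 103 ± 37.2 in flox livers, and Qprt at 55.6 ± 26.9 in iKO and 102 ± 36.04 in flox livers. The ranges mean ± SD of these neighbours overlapped in both genotypes. Nampt stood at 23.9 ± 7.22 in iKO and 19.9 ± 6.80 in flox livers, Nmrk1 at 11.9 ± 7.40 and 15.4 ± 8.18, and Nadsyn1 at 10.1 ± 5.64 and 13.1 ± 4.48, again with overlapping spreads. The lowest were Nmnat1 (5.75 ± 2.46 in iKO and 7.99 ± 2.47 in flox), Sirt1 (3.26 ± 0.932 and 3.33 ± 0.951) and Nmnat3 (1.999 ± 0.621 and 2.54 ± 0.684).

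In kidney Nampt came first, with 34.96 ± 6.78 in iKO and 33.2 ± 8.69 in flox, and Qprt second, with overlapping ranges of mean ± SD, at 27.5 ± 10.9 in iKO and 30.3 ± 6.14 in flox (CPM per kb). Naprt had 18.1 ± 4.84 in iKO and 17.2 ± 2.82 in flox kidneys, and Nmrk1 13.8 ± 6.56 and 15.2 ± 4.98. Nadsyn1, Nmnat1, Sirt1 and Nmnat3 ran down from 5.84 to 2.69 in iKO means and from 6.32 to 2.93 in flox means. Nnmt, the top gene of liver, was the last of the 9 here, at 0.680 ± 0.704 in iKO and 0.635 ± 0.479 in flox kidneys.

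In WAT Nnmt came first by its mean but with a spread larger than the mean, 24.6 ± 25.2 in iKO and 34.6 ± 44.8 in flox (CPM per kb). Nampt had 17.9 ± 8.12 in iKO and 20.6 ± 9.48 in flox. By medians the order of these genes was not the same, with 17.4 for Nnmt and 17.3 for Nampt in iKO and 17.6 for Nnmt and 18.7 for Nampt in flox. The next gene, Naprt, had 3.83 ± 1.46 in iKO and 3.62 ± 1.76 in flox, and Sirt1, Nmnat3, Nmrk1, Nadsyn1 and Nmnat1 lay between 1.61 and 3.51 in iKO means and between 1.62 and 3.23 in flox means. Qprt was nearly absent, at 0.391 ± 0.234 in iKO and 0.445 ± 0.264 in flox.

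**Figure D1:**
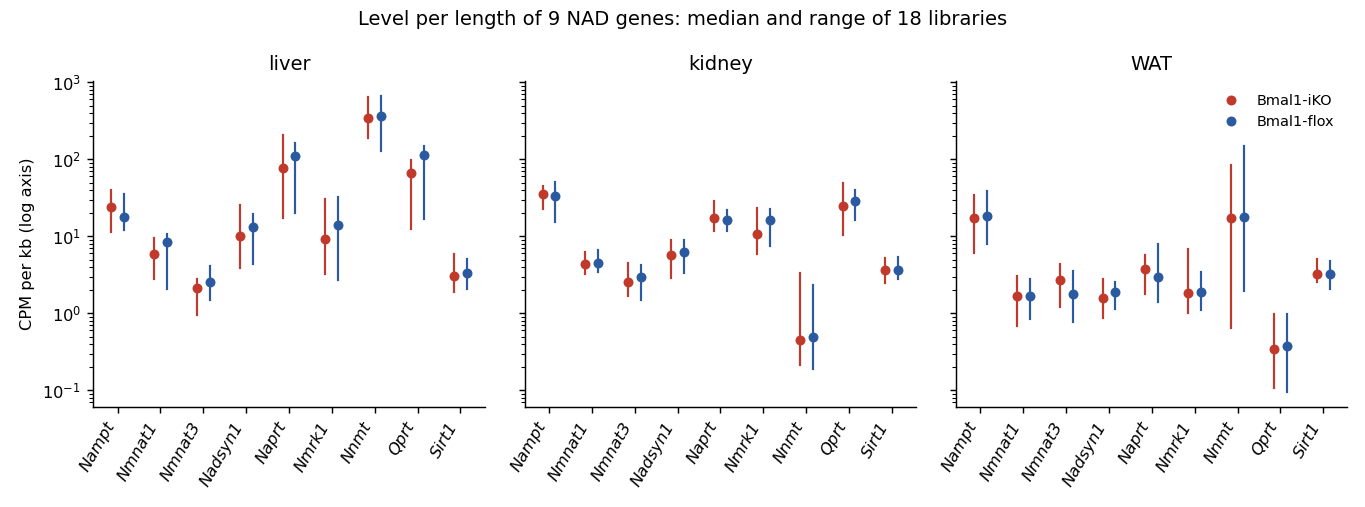
Level of the 9 genes in CPM per kb (log axis) in liver, kidney and WAT. Points are medians and lines the range of 18 libraries, iKO in red left of flox in blue. Nnmt leads in liver and is last in kidney, Nnmt and Nampt lead in WAT, and Qprt is last in WAT.

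The flox tissues were compared with each other to ask how far these levels differ beyond the spread between libraries (edgeR quasi-likelihood test in 1 fit of all libraries, called at an adjusted p under 0.05). Of the 9 genes, 6 were called between flox liver and flox kidney, 5 higher in liver and 1 lower, where 62.5% of all 22789 genes tested were called, 28.5% higher and 34% lower. Between flox liver and flox WAT 6 were called, all higher in liver (74.2% of all genes, 29.1% higher and 45.2% lower), and between flox kidney and flox WAT all 9, of which 8 were higher in kidney (63.5% of all genes, 25.1% higher and 38.4% lower). The median log2 difference of the 9 was 0.77 for liver over kidney, 2.85 for liver over WAT and 1.54 for kidney over WAT, beside -0.06, -0.40 and -0.26 over all genes. With such shares of all genes called, the counts alone do not set the 9 apart.

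For the routes that begin with tryptophan or nicotinic acid, Qprt was higher in flox liver than in flox kidney by 1.74 (SE 0.24, adjusted p = 9.36e-10) on the log2 scale and higher than in flox WAT by 7.92 (SE 0.31, adjusted p = 1.13e-35). Naprt was higher in flox liver by 2.53 (SE 0.19, adjusted p = 6.19e-20) over kidney and by 4.83 (SE 0.21, adjusted p = 5.55e-33) over WAT. Nadsyn1 followed with 1.04 over kidney and 2.87 over WAT. All 3 were also higher in flox kidney than in flox WAT, by 6.18, 2.30 and 1.82.

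For salvage, Nampt was the one gene lower in flox liver than in flox kidney (log2 difference -0.76, SE 0.16, adjusted p = 1.96e-05), and its difference from WAT was -0.09 (SE 0.16, 95% interval -0.39 to 0.22). That comparison with WAT changed when the libraries with epididymis markers were left out. This leaves 3 flox WAT libraries, which cover at most 3 of the 6 times. Nampt was then lower in flox liver than in flox WAT by a log2 difference of -0.96 (adjusted p = 1.59e-06, 45.8% of all genes called). The kidney over WAT difference of Nampt, 0.67 and called with all libraries, was then -0.21 and not called (39.9% of all genes called). The part of the epididymis markers in these changes was not tested. Nmrk1 had a log2 difference of -0.06 (95% interval -0.42 to 0.30) for flox liver over flox kidney and was higher in each than in flox WAT, by 2.85 and 2.91. Nmnat1 showed a step at each comparison, 0.77 for liver over kidney, 2.31 for liver over WAT and 1.54 for kidney over WAT, and the kidney over WAT value was 0.78 (adjusted p = 0.0249) without the WAT libraries with epididymis markers. Nmnat3 was called only for kidney over WAT, at 0.50, with -0.21 for liver over kidney and 0.29 (adjusted p = 0.0716) for liver over WAT, which was called without the 11 numbers (0.35, adjusted p = 0.0480).

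On the side of use, Nnmt had the widest range of the 9, with a log2 difference of 9.37 (SE 0.55, adjusted p = 8.57e-26) for flox liver over flox kidney, 3.86 (SE 0.42) for liver over WAT and -5.50 (SE 0.47) for kidney over WAT. Without the WAT libraries with epididymis markers the WAT differences of Nnmt were 1.58 (adjusted p = 0.00231) for liver over WAT and -7.79 (adjusted p = 4.34e-27) for kidney over WAT. Sirt1 had the narrowest, with -0.20 (adjusted p = 0.0856), 0.03 (adjusted p = 0.808) and 0.23 (adjusted p = 0.0407) in the same order. The last was lost with DESeq2 (0.16, adjusted p = 0.150), without the 11 numbers (0.20, adjusted p = 0.128) and without the WAT libraries with epididymis markers (-0.19, adjusted p = 0.491), and by leaving out kidney flox ZT2 library 2 or WAT flox ZT18 library 2, where the adjusted p reached 0.114. For flox liver over flox kidney Sirt1 was called without liver flox ZT10 library 1 or kidney flox ZT2 library 2, the lowest adjusted p being 0.0428.

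Between genotypes in liver, none of the 9 genes was called over the average of the 6 times, where 2.64% of 16582 genes were (1.09% higher and 1.56% lower), although 8 of the 9 differences were negative, with a median of -0.37 beside 0.00 over all genes. At an unadjusted p under 0.05 there were 5 of the 9, and DESeq2 called 2, Qprt and Nampt, where it called 9.63% of all genes. In bulk tissue fewer cells of a type and less RNA per cell cannot be told apart.

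Qprt had the largest difference, -0.94 on the log2 scale (SE 0.27, adjusted p = 0.0581). Its CPM ran from 20.8 to 176.6 with a median of 119.5 in iKO livers and from 27.2 to 256.7 with a median of 200 in flox livers, so the genotypes overlapped. At ZT2 the iKO libraries had 176.6, 120 and 132.2 CPM and the flox libraries 221.1, 140.4 and 195.6. At ZT6 Qprt stood at 44.3, 28.7 and 124.1 in iKO and at 29.1, 225.4 and 215.3 in flox. The lowest iKO values here belong to libraries 1 and 2 and the lowest flox value to library 1, all among the 11. At ZT10, where no library was among the 11, iKO had 131.8, 129.8 and 137.8 and flox 172.4, 171.6 and 200.7, with no overlap. At ZT14 the values were 67.7, 34.9 and 75.8 in iKO against 122.8, 216.3 and 199.4 in flox. At ZT18 they were 44.1, 20.8 and 167.9 in iKO against 213.1, 256.7 and 203.1 in flox. At ZT14 and at ZT18 iKO libraries 1 and 2 were among the 11. Within each of the times ZT10, ZT14 and ZT18, every iKO value lay under every flox value of that time. At ZT22 iKO had 127.6, 80.0 and 119.1 and flox 27.2, 221.3 and 189.6. The lone low flox library there was again among the 11, as were all 3 iKO libraries.

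Without the libraries of the 11 numbers (alternatives of this kind were chosen after the data were seen), Qprt was lower in iKO livers with a log2 difference of -0.67 (SE 0.13, adjusted p = 0.00183), a smaller difference with a smaller error, and 7.03% of all genes were called. The remaining libraries held 75.8 to 176.6 CPM (median 131.8, n = 9) in iKO and 122.8 to 256.7 (median 201.9, n = 16) in flox. No iKO ZT22 library remained, so the average without the 11 numbers covered the other 5 times. Qprt also passed the test with DESeq2 (-0.93, adjusted p = 0.0112). It passed when any of 5 single libraries was left out, namely iKO ZT6 library 3, iKO ZT14 library 3, iKO ZT18 library 3, flox ZT6 library 1 and flox ZT22 library 1, with adjusted p from 0.00765 to 0.0425. Over all 36 fits that left out 1 library, 208 to 3247 of all genes were called for the liver average, beside 438 with all libraries. The most were called without flox ZT6 library 1. Without the 2 numbers with Xist Qprt had -0.90 and an adjusted p of 0.120. Macrophage and cell cycle genes moved with the 11 libraries, of which 9 were iKO, as given above; their part in the liver differences was not tested.

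**Figure D2:**
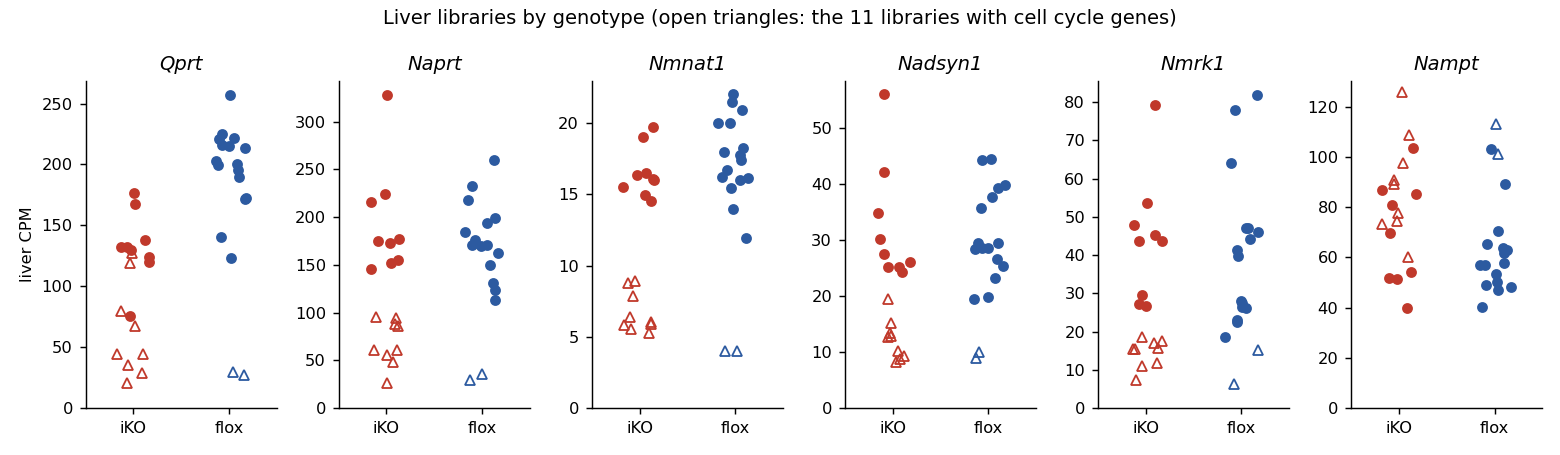
CPM of 6 genes in each liver library, iKO left of flox. Open triangles are the 11 libraries with high cell cycle genes and filled circles the other 25. The 11 lie below all others for Naprt and Nmnat1, while Nampt is higher in the 11 (median 90.7) than in the others (median 57.8) with overlap, and filled circles of Qprt lie lower in iKO (75.8 to 176.6) than in flox (122.8 to 256.7).

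Among the other synthesis genes of liver, Naprt, Nmnat1, Nmrk1 and Nadsyn1 were lower in the 11 libraries and had smaller genotype differences without them. Of the 11 libraries 9 were iKO, and their part in the differences was not tested. Naprt had 25.8 to 95.6 CPM in the 11, against 113 to 328 in the other 25, and its log2 difference of -0.37 in all libraries was 0.01 without the 11. Nmnat1 had 3.97 to 8.95 CPM in the 11 and 11.9 to 22.1 in the others, and its differences were -0.52 and -0.16. The 2 sets of libraries did not overlap for these genes. Nmrk1 had 6.15 to 18.5 CPM in the 11 and 18.6 to 81.8 in the others, with differences of -0.39 in all libraries and -0.04 without the 11. Nadsyn1 had 8.15 to 19.5 and 19.4 to 56.0 CPM, with a small overlap and differences of -0.43 and -0.06. Nmnat3 did not follow this pattern, with 3.12 to 9.18 CPM in the 11, 3.94 to 13.8 in the others and differences of -0.37 (adjusted p = 0.0870) and -0.32. Of these genes none was called in all libraries or without the 11. Leaving out iKO ZT6 library 3, iKO ZT18 library 3 or flox ZT6 library 1 gave a called Nmnat1 and Nmnat3, the lowest adjusted p being 0.0240 and 0.0345, and flox ZT22 library 1 did so for Nmnat1 alone. Without flox ZT6 library 1, 3247 of all genes were called.

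Nampt was the one member with a positive liver difference, 0.25 (SE 0.09, adjusted p = 0.0913), and DESeq2 called it at 0.27 (adjusted p = 0.0454). It had 60.1 to 126 CPM (median 90.7) in the 11, of which 9 were iKO, and 39.9 to 103.8 (median 57.8) in the other 25. Without the 11 it was 0.14 and not called. Left out singly, iKO ZT18 library 3, flox ZT6 library 1 and flox ZT22 library 1 gave a called difference, with 0.31 and an adjusted p of 0.0120 at the extreme. Of all genes, 3247 were called without flox ZT6 library 1. Nnmt (-0.09, 95% interval -0.47 to 0.29) and Sirt1 (-0.04, 95% interval -0.29 to 0.22) were closest to 0. Sirt1 turned to 0.26 (adjusted p = 0.364) without the 11.

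At single times none of the 54 pairs of gene and time was called in liver, where ZT18 had 0.0362% of all genes called and the other times 0%. An unadjusted p under 0.05 was found for 4 pairs, and DESeq2 called 1. These 4 were Qprt at ZT14 (log2 difference -1.60) and ZT18 (-1.53), Nmnat3 at ZT14 (-1.07, unadjusted p = 0.00194) and Nampt at ZT14 (0.56). Some differences above that of Nampt in size had a higher p, such as Qprt at ZT6 (-1.25, unadjusted p = 0.0724) and Nadsyn1 at ZT14 (-1.02, unadjusted p = 0.0558). A joint test of whether the genotype effect varied over the 6 times called 0% of all genes in each tissue, and 0 of the 9 had an unadjusted p under 0.05 there by edgeR or DESeq2.

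In kidney none of the 9 was called over the 6 times, where 0.164% of 17630 genes were (0.0737% higher and 0.0908% lower), and none reached an unadjusted p under 0.05 by edgeR or DESeq2. The log2 differences ran from -0.23 for Nmrk1 (95% interval -0.50 to 0.04) and -0.21 for Qprt (-0.44 to 0.02) up to 0.08 for Nampt (-0.10 to 0.26). At single times 3 of 54 pairs had an unadjusted p under 0.05, all at ZT14: Nmrk1 (-0.79), Nadsyn1 (-0.76) and Qprt (-0.64). None of these was called by edgeR or DESeq2, where edgeR called 0.0113% of all genes at ZT22 and 0% at the other times. Of the 3 ZT14 iKO numbers, 1 and 2 were among the 11.

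In WAT none was called over the 6 times, as for all 21402 genes tested (0%), and none reached an unadjusted p under 0.05 by edgeR or DESeq2. Differences ran from -0.22 for Nampt (95% interval -0.69 to 0.25) to 0.34 for Nmnat3 (-0.05 to 0.73). For Nnmt the difference was -0.13 with an interval of -1.27 to 1.01, so that a change of any size within that interval is not excluded. Qprt, barely transcribed in WAT, gave -0.09 (-0.70 to 0.52). At single times 2 of 54 pairs had an unadjusted p under 0.05, Nmrk1 at ZT6 (0.90) and Nmnat3 at ZT10 (1.03), and neither edgeR nor DESeq2 called any.

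**Figure D3:**
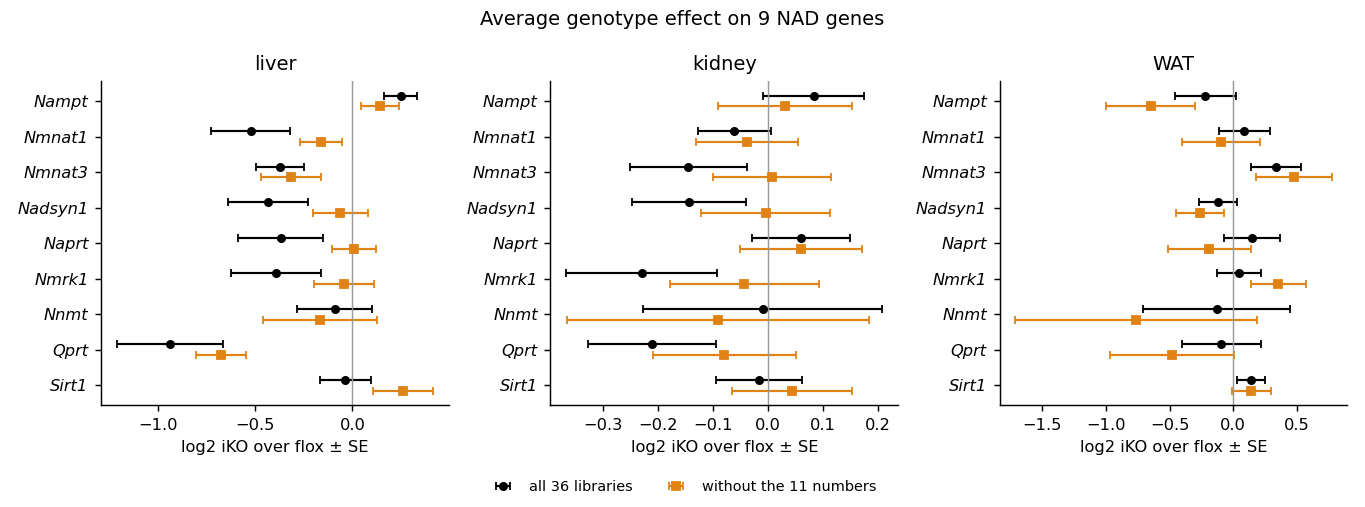
Average genotype effect, log2 iKO over flox with its SE, for the 9 genes in liver, kidney and WAT; the horizontal scales differ between panels. Black circles use all 36 libraries. Orange squares leave out the 11 numbers and so cover 5 times, without ZT22. In liver every black circle but that of Nampt lies left of 0, and Qprt at -0.67 lies farthest from 0 among the orange squares.

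To ask whether the genotype effect itself differed between tissues, it was tested as a difference in the fit of all libraries. None of the 9 was called for liver minus kidney (0.395% of all genes), liver minus WAT (0.592%) or kidney minus WAT (0.0132%). Unadjusted p under 0.05 counted 2, 4 and 1 genes in that order, and DESeq2 called 0, 1 and 0. For Qprt the liver minus kidney value was -0.73 (SE 0.33, adjusted p = 0.363) and the liver minus WAT value -0.84 (SE 0.34, adjusted p = 0.231). For Nmnat3 the liver minus WAT value was -0.68 (SE 0.21, adjusted p = 0.104).

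Daily rhythm was tested with a 24 h cosine fitted to each genotype. Of the 9 genes, Nampt in flox kidney was called, with an amplitude (log2 distance of mean to peak) of 0.41 (SE 0.09), a peak at 8.41 h (SE 0.83) and an adjusted p of 0.0170, where 5.07% of all kidney genes were called. In iKO kidney, where 4.22% of all genes were called, none of the 9 was, with 5 at an unadjusted p under 0.05. Nampt there had an amplitude of 0.29 (SE 0.09), a peak at 10.9 h (SE 1.2) and an adjusted p of 0.103. DESeq2 called 2 of the 9 in iKO kidney, Nampt (adjusted p = 0.0490) and Nmrk1 (adjusted p = 0.0345), where it called 8.93% of all genes. The change of rhythm between genotypes was not called (unadjusted p = 0.154, adjusted p = 0.9997), so the call in flox kidney alone by edgeR does not show that the genotypes differ.

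The kidney libraries behind this were as follows. At ZT2 Nampt had 127.7, 160.1 and 180.5 CPM in iKO and 177.1, 158.8 and 170.4 in flox. At ZT6 it had 254, 230 and 180.5 in iKO and 288.4, 231.8 and 212.2 in flox. All ZT6 flox libraries lay above all ZT2 flox libraries, while the lowest iKO library at ZT6 and the highest at ZT2 both stood at 180.5 CPM to 1 decimal. At ZT10 the values were 248.9, 241.1 and 206.1 in iKO and 231.7, 214.9 and 240.7 in flox. At ZT14 they were 221.3, 205.2 and 229.7 in iKO and 231, 160.1 and 184.5 in flox. The iKO libraries thus stayed at 205.2 or more through both times, and the flox libraries spread downwards at ZT14. At ZT18 iKO had 162.1, 220.7 and 176.1 and flox 132.8, 114.4 and 188.9. At ZT22 iKO had 177.5, 189.8 and 132 and flox 188.4, 165.8 and 84.8. The genotypes overlapped at all 6 times. The flox call held when each of the 36 libraries was left out in turn and without the 11 numbers, and missed the threshold when time was a factor with 6 levels (adjusted p = 0.0519), where 12.4% of all genes were called, and among the 9 Nmnat1 (adjusted p = 0.0411).

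**Figure D4:**
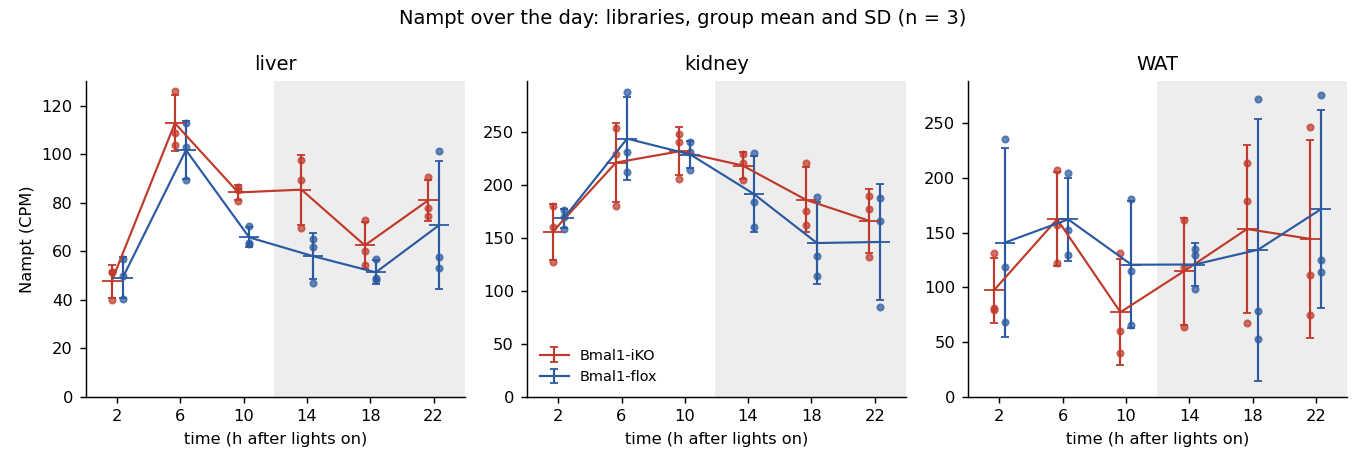
Nampt CPM in liver, kidney and WAT against time (hours after lights on, dark phase shaded); points are libraries, lines join group means and bars are SDs of 3 libraries, iKO in red and flox in blue. The kidney and liver means are highest at ZT6 or ZT10, while the WAT libraries spread from 40.3 to 275.3.

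In liver the mean of Nampt was highest at ZT6 in both genotypes. At ZT2 the iKO livers had 39.9, 51.5 and 51.7 CPM and the flox livers 40.3, 57 and 50.0. At ZT6 iKO had 126, 108.7 and 103.8 and flox 113.1, 103.1 and 89.3. Every ZT6 library lay above every ZT2 library in both genotypes. At ZT10 iKO had 86.8, 80.9 and 85.3 and flox 70.6, 63.1 and 63.6, with every iKO value above every flox value. At ZT14 iKO had 97.6, 89.3 and 69.5 and flox 47.1, 65.3 and 61.9, again without overlap. Libraries 1 and 2 of iKO at ZT6, ZT14 and ZT18 and flox ZT6 library 1 were among the 11. At ZT18 iKO had 60.1, 73.2 and 54.2 and flox 49.0, 57.0 and 48.0, and at ZT22 iKO had 74.5, 90.7 and 77.9 and flox 101.4, 53.3 and 57.8. The genotypes overlapped at the last 2 times, at ZT22 through flox library 1, which is among the 11, as are all 3 iKO ZT22 libraries. The cosine was not called for Nampt in either genotype, with amplitudes of 0.28 (SE 0.13, peak 9.36 h, adjusted p = 0.526) in iKO and 0.30 (SE 0.13, peak 6.08 h, adjusted p = 0.390) in flox, where 0.0844% and 0.772% of all genes were called. With time as a factor Nampt was called in both, at adjusted p of 0.0138 in iKO and 0.0270 in flox, where 11.6% and 4.11% of all genes were.

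No member was called by the cosine in either liver, with 4 at an unadjusted p under 0.05 in iKO and 1 in flox, and DESeq2 called 1 in each. Nmrk1 had the largest liver amplitudes of the 9, 0.89 (SE 0.22, peak 6.87 h) in iKO and 0.85 (SE 0.22, peak 9.32 h) in flox, with adjusted p of 0.170 and 0.120. DESeq2 called both (0.0467 in iKO and 0.0326 in flox), where it called 1.23% and 2.87% of all genes. Without the 11 numbers the flox rhythm was called with an adjusted p of 0.000543, where 8.24% of all genes were called, beside 0.772% with all libraries. It was also called without flox ZT6 library 1 alone (0.0489), where 205 of all genes were. At ZT10 Nmrk1 had 53.7, 47.9 and 43.7 CPM in iKO and 81.8, 64.1 and 46.0 in flox livers. At ZT18 it had 10.9, 7.41 and 27.3 in iKO and 22.9, 22.4 and 26.3 in flox livers. In each genotype every ZT10 library lay above every ZT18 library, but iKO ZT18 libraries 1 and 2 were among the 11 and no ZT10 library was. In iKO livers no rhythm of the 9 was called without the 11 numbers, where 0.861% of all genes were. In kidney Nmrk1 had an amplitude of 0.64 (SE 0.17, peak 5.76 h, adjusted p = 0.0799) in iKO and 0.41 (SE 0.17, peak 6.64 h, adjusted p = 0.288) in flox, and besides DESeq2 the iKO rhythm was called with time as a factor (adjusted p = 0.00477, where 40% of all genes were called) and without iKO ZT6 library 1 or 2 (down to an adjusted p of 0.0203), both among the 11.

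Of the remaining rhythms, which the cosine fit did not call with all libraries, a few came near the threshold. Sirt1 had kidney amplitudes of 0.19 (SE 0.08) in iKO and 0.24 (SE 0.08) in flox, with peaks at 22.9 and 3 h and adjusted p of 0.238 and 0.110. Nnmt, low in kidney, had amplitudes of 0.89 (SE 0.27) and 0.72 (SE 0.27) there with peaks at 23.4 and 22.9 h (adjusted p = 0.0989 in iKO and 0.173 in flox), and without iKO ZT2 library 1 the iKO value was called (0.0407). Qprt in iKO kidney, with an amplitude of 0.44 (SE 0.14) and an adjusted p of 0.120, was called without iKO ZT6 library 2 (0.0456). In WAT, where 0% of all genes were called, Nnmt in flox had the largest amplitude, 1.64 (SE 0.53, adjusted p = 0.464); of the 9, 1 in iKO and 2 in flox had an unadjusted p under 0.05, and DESeq2 called none. No change of rhythm between genotypes was called for any of the 9 in any tissue (0% of all genes), none had an unadjusted p under 0.05, and DESeq2 called none. Of the clock genes tested, 4 of 21 were called rhythmic in iKO and 8 of 21 in flox livers, 12 of 22 in iKO and 14 of 22 in flox kidneys, and none in WAT.

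In WAT some of the members differed between libraries with and without the epididymis markers. Nnmt had 1.34 to 99.9 CPM (median 31.3) in the 28 libraries with those markers and 26.1 to 324 (median 175) in the other 8. Nampt had 40.3 to 246.5 (median 114.5) and 131 to 275 (median 211), and Naprt 4.54 to 19.2 and 15.4 to 25.7. Sirt1, at 14.6 to 38.2 and 21.7 to 36.03 CPM, differed less. Nmnat1 had 2.77 to 10.9 CPM (median 5.90) in the 28 and 5.91 to 12.7 (median 10.02) in the 8. Nmnat3 had 5.25 to 27.9 CPM (median 14.4) in the 28 and 11.5 to 31.9 (median 19.1) in the 8. The ranges of Nadsyn1 (medians 7.13 in the 28 and 8.79 in the 8), Nmrk1 (9.80 and 8.69) and Qprt (1.29 in both) overlapped almost wholly. Adipocyte markers, at the values given above, were lower in the 28 as well, and their part in these levels was not tested. With the epididymis mean as a covariate none of the 9 genotype differences was called either.

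**Figure D5:**
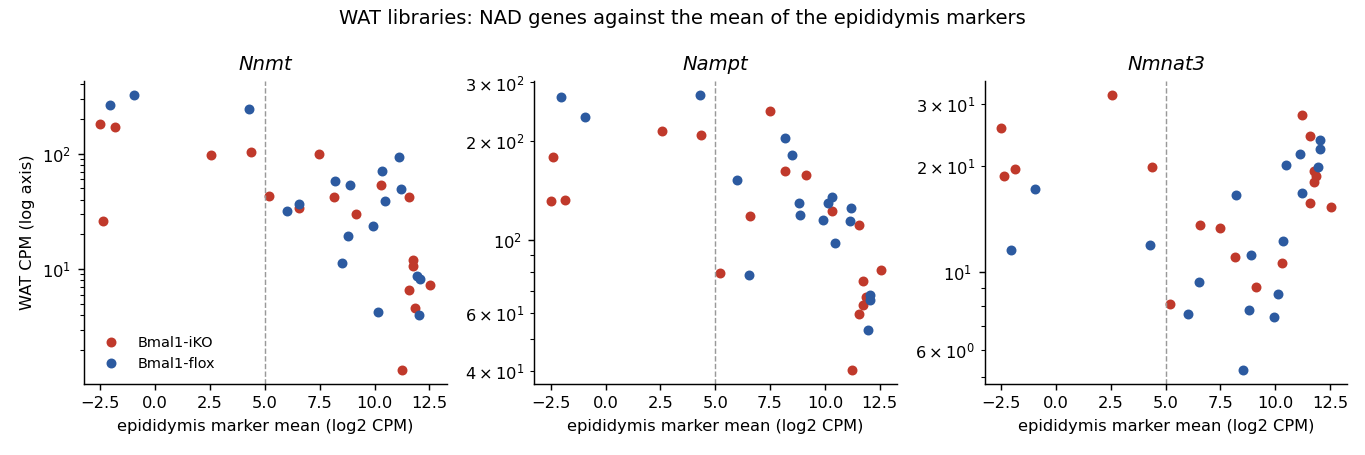
CPM (log axis) of Nnmt, Nampt and Nmnat3 in each WAT library against the mean log2 CPM of the epididymis markers, iKO in red and flox in blue; the dashed line is at 5. Nnmt and Nampt are highest at the left, where they reach 324 and 275 CPM, and lowest at the right.

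The genes most like each member were found by Pearson's r of log2 CPM over the 36 libraries of a tissue, which share the differences between libraries described above, so these values only describe the libraries. In liver the nearest to Naprt was Apoc1 (r = 0.973), to Nmnat1 Atp5j (0.968), to Qprt Xrcc5 (0.966), to Nadsyn1 Aspg (0.962) and to Nmrk1 Sepsecs (0.920). Lower values were found for Sirt1 with Fnip1 (0.871), Nampt with Mxd1 (0.748), Nmnat3 with Zfp938 (0.734) and Nnmt with Asl (0.688). Nampt in kidney was nearest to Slc6a20a (0.746), Scnn1a (0.737) and Edc3 (0.659), whereas the other members tested there had a nearest gene at 0.840 or more. In WAT Nnmt was nearest to Pparg (0.980), Serpina3c (0.972) and Car3 (0.971), genes of fat cells, and Nampt to Sowahc (0.890).

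A further 43 genes of NAD metabolism were grouped by role. Between genotypes none of them was called over the 6 times in liver (40 tested, 9 at an unadjusted p under 0.05, lowest adjusted p 0.0665), kidney (41 tested, 4, 0.188) or WAT (42 tested, 3, 1). DESeq2 called 4 of them in liver, Cd38, Haao, Pnp and Sirt5, where it called 9.63% of all genes, and 0 in kidney and in WAT. The median of their log2 differences stood at -0.13 for liver, 0.04 for kidney and 0.03 for WAT. By the cosine fit 2 PARP genes were called in kidney, Parp4 in flox (amplitude 0.42, SE 0.08, peak 2.44 h, adjusted p = 0.00780) and Parp8 in iKO (amplitude 0.47, SE 0.10, peak 0.46 h, adjusted p = 0.0215). Of all genes 5.07% were called in flox and 4.22% in iKO kidneys. Parp8 was not called without the 11 numbers (adjusted p = 0.422) or without any of 5 single iKO libraries (ZT10 library 1, ZT14 libraries 1 and 2, ZT22 libraries 2 and 3), where the adjusted p went up to 0.0701. Calls fell over all genes as well, from 744 to 31 (0.17%) without the 11 numbers, which left 9 iKO libraries. Without iKO ZT10 library 1 they fell to 170.

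The genes of the route from tryptophan towards quinolinate, the substrate of Qprt, with Acmsd, whose enzyme diverts from it, differed widely between flox tissues. Of these 8 genes, 6 were called between flox liver and flox kidney, all higher in liver (62.5% of all genes called, 28.5% higher), and all 8 between flox liver and flox WAT, 7 of them higher in liver (74.2% of all genes called, 29.1% higher). Tdo2, the first enzyme of the route in liver, had a median of 460.5 CPM in iKO and 709.5 CPM in flox livers and 0.197 CPM in iKO and 0.200 CPM in flox kidneys, each tissue scaled on its own, and its log2 difference between the flox tissues was 12.18 (SE 0.52). Haao, which makes the direct precursor of quinolinate, was higher in flox liver by 2.79 (SE 0.34) over kidney and in flox kidney by 7.85 (SE 0.44) over WAT. Kynu, a kynureninase, stood higher in flox liver than in flox kidney by 3.97 (SE 0.28). Ido1, the inducible first enzyme, went the other way and was lower in flox liver and in flox kidney than in flox WAT: its median was 0 in liver of both genotypes, while in WAT it ran from 2.42 to 689 CPM in the 28 libraries with epididymis markers and from 0.0408 to 8.65 CPM in the other 8.

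Among the enzymes that use NAD or clear nicotinamide, Aox1 and Aox3, the aldehyde oxidases that act after Nnmt, were higher in flox liver than in flox kidney by 7.25 (SE 0.49) and 7.32 (SE 0.50). Of 2 genes of NADH pyrophosphatases grouped with them, Nudt13 was called higher there (0.63, SE 0.14) and Nudt12 was not called (0.17). Of 6 other sirtuin genes, 4 were called for liver over kidney (62.5% of all genes), all higher, led by Sirt7 (1.2, SE 0.12), and 6 for liver over WAT (74.2% of all genes), of which 5 were higher, Sirt3 (2.84) and Sirt7 (2.21) among them. Of 14 PARP genes, 12 were called for liver over kidney, 9 higher and 3 lower (28.5% and 34% of all genes), with Parp16 at 1.49 and Parp8 at -2.51. Of the 3 NAD glycohydrolases, Cd38 (1.77) and Sarm1 (1.58) were higher and Bst1 (-3.79) lower in flox liver than in flox kidney. Sarm1 rests on few counts, with medians of 0.476 CPM in flox liver and 0.241 CPM in flox kidney, each tissue scaled on its own. Sarm1 was lower in flox liver than in flox WAT (-1.89) with all libraries but higher (2.77, adjusted p = 0.0268) without the WAT libraries with epididymis markers. The neuronal adenylyltransferase gene Nmnat2 was lower in flox liver than in flox WAT (-2.27, SE 0.43) with all libraries and without those with epididymis markers (-2.39). Its median in flox liver was only 0.124 CPM.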

How the data were processed

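Whole-number read counts per gene were used as the authors deposited them, in 1 table of 55416 genes and 36 libraries for each of 3 tissues. Per the labels, RNA was taken with Trizol, made into libraries with NEBNext Ultra and read as 150 bp reads. The submitters' processing notes name HISAT2 2.0.4, featureCounts 1.5.0-p3, DESeq2 1.16.1 and the GRCm38 or mm10 build; the strand setting of the counting is not given in the sources used here. The 9 genes and the lists of other genes were chosen with earlier results of these data known.

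Counts were analysed with edgeR 4.0.16 in R 4.3.3, with TMM scaling, a filter on low counts by group and robust quasi-likelihood tests. Each tissue had its own fit over 12 groups of genotype and time, and the comparisons between tissues and of genotype effects between tissues came from 1 fit over 36 groups. P-values were adjusted over all genes tested (Benjamini-Hochberg) and called under 0.05. The average genotype effect was the mean of the 6 differences. The rhythm test fitted a cosine and sine of 24 h for each genotype. CPM values were scaled within a tissue, and CPM per kb over all libraries with the deposited gene length. Alternatives were DESeq2 1.42.0, its size factors, no filter, a replicate block, time as a factor and leaving out libraries singly, plus those said to be added after the data were seen. For comparisons between tissues only 12 flox libraries, drawn at random, were left out in turn, 8 of them touching each comparison. The fits were tested on simulated data. Of 108 pairs of libraries within a group, none looked like 1 library deposited more than once; pairs across groups were not compared.

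Named genes were the 9 members, up to 4 called genes for each role and comparison among the others with the smallest p, and the 3 most alike genes for a member. Ido1 was named after its values were seen. Among the 9 members, depth limits Qprt in WAT and Nnmt in kidney. It also limits some of the other genes, such as Sarm1 in liver and kidney and Nmnat2 in liver. Positions and promoters came from GENCODE M21 and RefSeq (GRCm38.p6), matched by gene ID or symbol.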

Additional observations from a re-analysis of the deposited data

Results flagged for a closer look

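Of all genes named here, 1 was singled out because its genotype effect differed between tissues by a test of that difference. Haao, which encodes the enzyme just before quinolinate in the route from tryptophan, had a genotype effect that was -2.07 (SE 0.48, adjusted p = 0.0256 by edgeR) in liver minus WAT on the log2 scale. In liver its own difference, iKO minus flox, was -1.09 (SE 0.41, adjusted p = 0.114), with 31.2 to 802.7 CPM (median 401.3) in iKO and 21.95 to 1152 CPM (median 829.3) in flox. In WAT it was 1.004 (SE 0.35, adjusted p = 1), with 0.447 to 6.14 CPM (median 1.81) in iKO and 0.173 to 3.72 CPM (median 0.765) in flox, so the WAT side rests on few counts. Without the 11 numbers the liver minus WAT value was -1.20 (adjusted p = 0.196), and with no filter on low counts -2.06 (adjusted p = 0.0518). In liver the 11 libraries held 21.95 to 280.1 CPM; without them iKO held 522.4 to 802.7 CPM and flox 621.7 to 1152 CPM. The part of the 11 libraries in the difference was not tested.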

How the results depend on the processing

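Of 5788 values recomputed over 202 results under the alternatives, 5607 were labelled the same. For a difference this meant the same direction and side of the threshold, and for a rhythm the same side of the threshold. For a number of members called it meant an equal or similar number. Numbers of members called changed as follows. DESeq2 called 2 for the average genotype effect in liver (9.63% of all genes) and 1 at single times in liver. It called 1 for the rhythm in iKO livers (1.23%), 1 in flox livers (2.87%) and 2 for the rhythm in iKO kidney (8.93%). For the genotype effect of liver minus WAT it called 1 (3.05%). With time as a factor the rhythm calls were 1 in iKO livers (11.6% of all genes), 1 in flox livers (4.11%) and 7 in iKO kidneys (40%), and in flox kidneys 1 as before, Nmnat1 in place of Nampt (12.4%). Without the 11 numbers there was 1 for the liver average (7.03% of all genes) and 1 for the rhythm in flox livers (8.24%). There were 7 for flox liver over flox WAT (Nmnat3 added, 72.9% of all genes) and 8 for flox kidney over flox WAT (Sirt1 lost, as with DESeq2, 61.6% of all genes without the 11 numbers). Leaving out single libraries gave 0 to 4 for the liver average, 0 to 1 at single liver times (1 without iKO ZT18 library 3), 0 to 1 for the rhythm in flox livers (1 without flox ZT6 library 1) and 0 to 2 for the rhythm in iKO kidneys (without iKO ZT2 library 1 or iKO ZT6 library 1 or 2). Of all genes, these fits called 208 to 3247 for the liver average, 60 to 205 for the rhythm in flox livers and 170 to 1601 for that in iKO kidneys. Why these counts moved was not tested.

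Directions turned for the following differences, all on the log2 scale. Without the 11 numbers the genotype difference was -0.10 for Nmnat1 and -0.19 for Naprt in WAT, 0.0076 for Nmnat3 and 0.044 for Sirt1 in kidney, and 0.010 for Naprt and 0.26 for Sirt1 in liver. With the epididymis covariate Nmnat1 in WAT had -0.056, and without the 2 Xist numbers Sirt1 in kidney had 8.90e-05. For flox liver over flox WAT, Sirt1 had -0.0030 with DESeq2 size factors and -0.0044 with DESeq2. Without the WAT libraries with epididymis markers, liver over WAT was -0.38 for Sirt1, 2.77 for Sarm1, -0.15 for Nadk and -0.63 for Nudt13, and kidney over WAT was -0.21 for Nampt, -0.19 for Sirt1, 1.19 for Sarm1 and -0.48 for Pnp. Leaving out single libraries, genotype differences in WAT ran from -0.038 to 0.13 for Nmnat1, -0.12 to 0.15 for Nmrk1, -0.78 to 0.21 for Nnmt and -0.41 to 0.044 for Qprt, in liver from -0.16 to 0.043 for Nnmt and -0.11 to 0.023 for Sirt1, and in kidney from -0.18 to 0.094 for Nnmt and -0.044 to 0.030 for Sirt1. Liver over kidney for Nmrk1 ran from -0.13 to 0.0031 and liver over WAT for Sirt1 from -0.065 to 0.077.

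Within a tissue the library numbers gave no clear pairing of iKO with flox. Libraries of 1 time and number had a median correlation of their deviations of 0.022 in liver, 0.026 in kidney and 0.107 in WAT. In that order 14, 15 and 14 of 36 correlated best with their own number. Across tissues, libraries of 1 genotype, time and number had medians of 0.055 (liver and kidney), 0.014 (liver and WAT) and 0.045 (kidney and WAT). Of 36 pairs each, 10, 2 and 5 lay above 0.1. Xist was high in all 3 tissues of the same 2 numbers, and the labels do not say whether a number marks 1 animal across tissues. Within a tissue the replicate block was the number alone, shared over times and genotypes. With it 1 member was called for the liver average, Qprt (-0.97, adjusted p = 0.0381), where 4.8% of all genes were. Between tissues the block was each genotype, time and number. With that block Sirt1 was called for flox liver over flox kidney (-0.22, adjusted p = 0.0322, 61.9% of all genes). Nmnat3 was called for flox liver over flox WAT (0.35, adjusted p = 0.0245, 72.8% of all genes).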
